A study of Mus musculus with 12 samples.

Results

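The guidance receptor set holds 10 genes that are best known from growing axons and vessels and that blood cells also use: the neogenin gene Neo1, the neuropilin genes Nrp1 and Nrp2, the plexin genes Plxna1, Plxnc1 and Plxnd1, the semaphorin genes Sema4a, Sema4d and Sema7a, and the VEGF receptor gene Kdr. They were followed in EML1 cells, a progenitor line that grew out of bone marrow of male BDF1 mice after infection with the retroviral vector LRARalpha403SN, which every group carried. Cells with TEL-AML1 (the ETV6-RUNX1 fusion of childhood leukaemia) in the lentiviral vector pWPI were compared with cells holding the empty pWPI vector, each kept untreated or given IL7 and FLT3L for 5 or 7 days, with 2 Affymetrix arrays in each of 6 groups. Per the labels' culture protocol, treated cells were plated on OP9 stroma with 10 ng/ml IL7 and 80 ng/ml FLT3L in another medium, so treatment stands here for stroma, cytokines and medium together. The labels do not say whether each vector population was 1 infection or clone, nor whether the 2 arrays of a group were separate cultures, so p-values measure only the spread between these arrays.

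Members were taken by gene symbol from the platform annotation. Each of the 10 genes had 1 probe set, so taking the brightest probe set of a gene made no choice, and they were 10 of 18820 named genes. The genes were chosen by family with earlier results known, and Neo1 and Nrp1 were selected on their measured difference, lower in untreated TEL-AML1 cells. Values of these 2 genes that involve an untreated array are therefore described below without a p-value, apart from a flagged Nrp1 difference near the end. Where these genes enter a count of calls through such values, they are named and nothing is read from them. The filter on dim probe sets, a mean intensity over 59.9, left 9 members among 12345 tested genes. Nrp2 lay just above it with a mean of 61 and Kdr below it with a mean of 45.7.

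Plexins are the signalling receptors of semaphorins. Their cytoplasmic part acts on small GTPases and loosens adhesion and the actin skeleton. Neuropilins have a short tail of their own and serve as partners, presenting secreted semaphorins to plexins and VEGF to its receptor kinases. Neogenin, a relative of the netrin receptor DCC, binds netrins and the repulsive guidance molecules, which also act in BMP signalling. In the blood system, membrane-bound semaphorins such as Sema4a, Sema4d and Sema7a take part in contacts between lymphocytes, antigen-presenting cells and stroma.

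Levels below are linear array intensities of 1 probe set, so levels of different genes cannot be set against each other. Differences are on the log2(intensity + 16) scale with their standard error after ±, and each adjusted p-value is limma's, by Benjamini and Hochberg across the 12345 tested genes, with a threshold of 0.05. Array medians lay between 68.1 and 72.9, and arrays of 1 group correlated at 0.981 to 0.997 across genes. Of 5 progenitor markers with a probe set, 4 were above the filter in all 6 groups, Kit between 2186 and 2744 and Cd34 between 1927 and 2565 on all arrays. Of 12 stromal markers (collagens, Fn1, Sparc, Cxcl12 and others), 7 were above the filter in untreated TEL-AML1 cells and 5 in untreated empty-vector cells, against 9 or 10 in each treated group. Their summed intensity was 5989 and 2854 with TEL-AML1 and 6798 and 5058 with the empty vector at day 5 (replicates 1 and 2), and 1838 and 3288 with TEL-AML1 and 1856 and 4134 with the empty vector at day 7. In untreated cells the sum stayed between 1550 and 1968. In a mixed culture a change of RNA per cell cannot be told apart from a change in the share of a cell type. Of 7 endothelial markers, 3 or 4 were above the filter in every group.

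**Figure D1:**
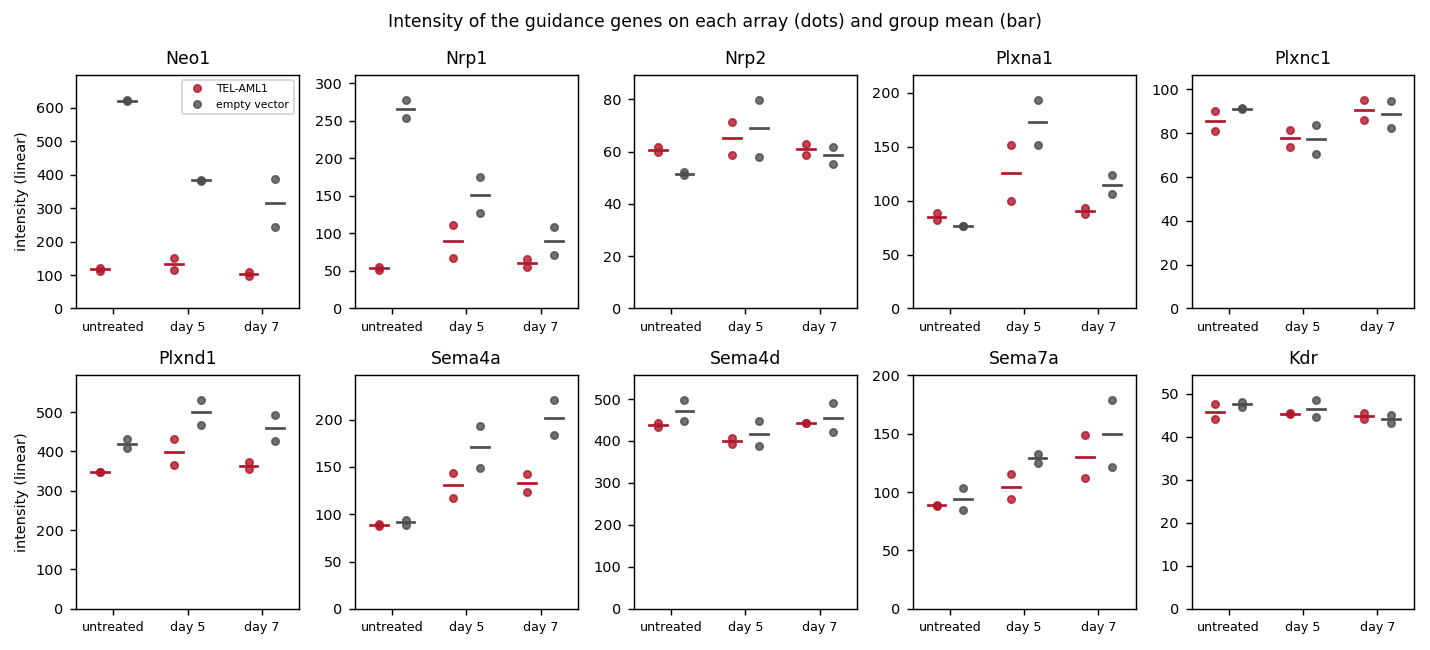
Linear intensity of the 10 guidance genes on each array (dots, 2 a group) with the group mean (bar), for TEL-AML1 (red) and the empty vector (grey) in untreated cells and at day 5 and day 7. Neo1 arrays with TEL-AML1 lie below all empty-vector arrays, Sema4a is higher on every treated array than on every untreated one, and Kdr stays between 43.1 and 48.6.

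Neo1 was the member with the widest spread, 2.41 on the log2 scale between its highest and lowest group mean. In untreated cells its intensity was 120 and 113 with TEL-AML1, against 624 and 619 with the empty vector. At day 5 it was 151 and 114 with TEL-AML1, against 385 and 381 with the empty vector. At day 7 it was 97.4 and 110 with TEL-AML1, against 245 and 386 with the empty vector. In every condition both TEL-AML1 arrays were below both empty-vector arrays, and the highest of the 6 TEL-AML1 arrays was below the lowest of the 6 empty-vector arrays. The difference of TEL-AML1 from empty vector was -2.27 ± 0.18 in untreated cells. It was -1.44 ± 0.18 at day 5 (adjusted p = 0.000898) and -1.44 ± 0.18 at day 7 (adjusted p = 0.000616), so Neo1 was also lower in the treated arrays. These arrays come from the same vector populations in which Neo1 was selected, so their p-values are not support apart from that selection. Over the 25 alternatives the adjusted p stayed between 6.79e-05 and 0.0139 at day 5 and between 1.86e-05 and 0.0341 at day 7.

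Within the empty vector, Neo1 differed from untreated cells by -0.68 ± 0.18 at day 5 and -0.98 ± 0.18 at day 7, and within TEL-AML1 by 0.15 ± 0.18 and -0.15 ± 0.18. The order of group means ran from untreated empty-vector cells (622) over empty vector at day 5 (383) and day 7 (315) to TEL-AML1 at day 5 (132), untreated (116) and day 7 (104). The day 5 and day 7 arrays of the empty vector overlapped, and so did the day 5 and untreated arrays of TEL-AML1. In each of the 4 treated groups Neo1 was higher on the array with the larger stromal marker sum, though only at 385 against 381 for the empty vector at day 5. Same-numbered arrays of the vectors deviated together, so such counts over the 4 groups do not rest on separate pairs. The share of all genes with this pattern was not counted. With the stromal sum as a covariate, an alternative chosen after seeing the data, the day 5 difference of the empty vector from untreated was -1.38. Stromal sums of these groups did not overlap, so that value is extrapolated and does not separate stroma from treatment.

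Nrp1, the neuropilin that partners plexins for class 3 semaphorins and VEGF receptors for VEGF-A, had its highest level in untreated empty-vector cells, as Neo1 did. In untreated cells it stood at 55.1 and 51.6 with TEL-AML1, against 254 and 278 with the empty vector. At day 5 the values were 112 and 67.4 with TEL-AML1, against 176 and 127 with the empty vector. At day 7 they were 54.9 and 66.1 with TEL-AML1, against 71.1 and 109 with the empty vector. Both TEL-AML1 arrays were again below both empty-vector arrays in each condition, by a narrow margin at day 5 and day 7.

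The difference of TEL-AML1 from empty vector in Nrp1 was -2.02 ± 0.22 in untreated cells. Both untreated TEL-AML1 arrays and 1 at day 7 were under the filter intensity of 59.9, so the size of that difference depends on the processing, and it lay between -2.30 and -1.49 over 25 alternatives. At day 5 it was -0.68 ± 0.22 (adjusted p = 0.0991) and at day 7 -0.45 ± 0.22 (adjusted p = 0.24), and neither passed. The treated arrays come from the vector populations in which Nrp1 was selected, so their p-values, in any fit, are not support apart from that selection. With arrays paired by replicate number inside each condition (the paired fit), the adjusted p was 0.00427 at day 5 and 0.0165 at day 7, and with the stromal sum as a covariate 0.0272 and 0.0344, where the differences were -0.44 and -0.37. Without replicate 1 of TEL-AML1 at day 5 the day 5 difference was -0.99 and called (adjusted p = 0.0341), and without replicate 2 it was -0.37 (adjusted p = 0.443). Treated empty-vector cells differed from untreated ones by -0.77 ± 0.22 at day 5 and -1.44 ± 0.22 at day 7, and treated TEL-AML1 cells by 0.57 ± 0.22 and 0.14 ± 0.22. Group means thus ran from 266 in untreated empty-vector cells to 53.3 in untreated TEL-AML1 cells, with the overlapping groups of empty vector at day 7 (90) and TEL-AML1 at day 5 (89.6) in between. Nrp1 was also higher on the array with more stromal marker intensity in each of the 4 treated groups, and with the stromal covariate the day 5 difference from untreated was 0.03 within TEL-AML1 and -1.68 within the empty vector. As for Neo1, those covariate values are extrapolated.

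Nrp2, the sister neuropilin, showed no such pattern. It stood at 61.9 and 59.8 with TEL-AML1 and 52.1 and 51.2 with the empty vector in untreated cells, at 71.5 and 58.6 against 80 and 58.1 at day 5, and at 63.1 and 58.7 against 55.2 and 62 at day 7. The differences of TEL-AML1 from empty vector were 0.18 ± 0.12, -0.06 ± 0.12 and 0.04 ± 0.12 (adjusted p = 0.506, 0.832 and 0.868), with 95% intervals that stayed between -0.33 and 0.45. At these levels the probe set is close to the dim end of the array, which limits what a difference can show.

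Across the 12 arrays Neo1 and Nrp1 correlated at r = 0.91, while Neo1 and Nrp2 correlated at -0.25, as a description over arrays that share vector and condition. The tested genes most like Neo1 by Pearson r over the 12 arrays were Hmgn1 (0.989), Vps33a (0.988) and Fam135a (0.985). Vps33a lies in a distal stretch of chromosome 5, from Taok3 to Rfc3, where many genes were lower with TEL-AML1 (values are given with Flt1). For Nrp1 they were Pomgnt1 (0.971), Itgb5 (0.959) and Tulp4 (0.956). For Plxna1 they were Dlg5 (0.992), Cd109 (0.989) and Irx3 (0.989), and for Sema4a Tbc1d4 (0.966), Agrn (0.958) and Smarca2 (0.951).

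Because Neo1 and Nrp1 are the members selected on their difference between the vectors, the 250 bases before the RefSeq start of each gene are shown with that of Sema4d, where a RUNX core was found. Sequences are from RefSeq on GRCm38.p6, 5′ to 3′ on the gene's strand, and capitals mark the RUNX core TGTGGT or its reverse complement ACCACA. The Neo1 window is chr9:59036442-59036691 on the minus strand, the Nrp1 window chr8:128358823-128359072 on the plus strand and the Sema4d window, 1 of 3 for that gene, chr13:51748811-51749060 on the minus strand.
Neo1: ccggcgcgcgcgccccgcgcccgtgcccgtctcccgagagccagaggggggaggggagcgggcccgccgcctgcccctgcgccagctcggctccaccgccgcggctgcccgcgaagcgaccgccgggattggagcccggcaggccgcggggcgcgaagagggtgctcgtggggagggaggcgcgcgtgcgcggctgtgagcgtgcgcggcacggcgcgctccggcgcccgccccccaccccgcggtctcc
Nrp1: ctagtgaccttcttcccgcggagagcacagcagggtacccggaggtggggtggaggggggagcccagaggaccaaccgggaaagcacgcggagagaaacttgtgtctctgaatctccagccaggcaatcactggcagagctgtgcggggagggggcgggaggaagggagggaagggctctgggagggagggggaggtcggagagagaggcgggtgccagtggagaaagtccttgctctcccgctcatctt
Sema4d: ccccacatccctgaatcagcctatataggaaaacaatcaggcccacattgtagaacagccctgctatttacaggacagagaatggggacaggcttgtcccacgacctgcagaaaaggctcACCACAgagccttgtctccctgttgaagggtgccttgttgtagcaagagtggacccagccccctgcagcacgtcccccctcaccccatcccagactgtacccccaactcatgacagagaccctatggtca
Of 32851 such windows in the table, 14% held the RUNX core and 12% the ETS core CCGGAA (or TTCCGG), searched on both strands. Of the 10 members, 9 had a window. The RUNX core was found in 1 Sema4d window, 130 bases before the start, and the ETS core in 1 of 4 Sema4a windows and in that of Kdr. Neither stood in the Neo1, Nrp1, Nrp2, Plxnc1, Plxnd1 or Sema7a window, which says only that these letters are not in those bases. The Neo1 window was 83.2% G or C and the Nrp1 window 64.4%, against a median of 52.4% over all windows.

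**Figure D2:**
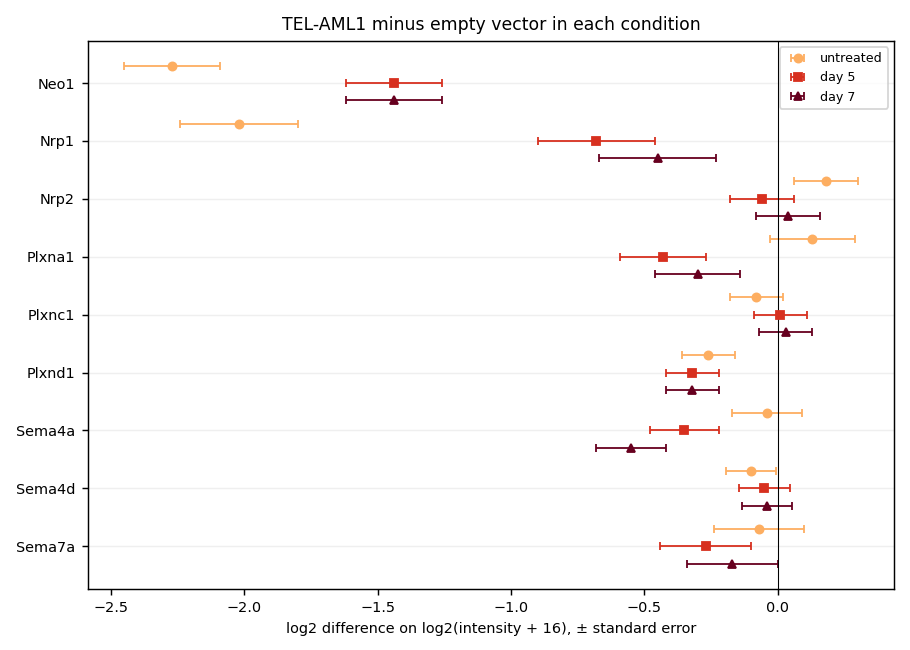
Log2 difference of TEL-AML1 from empty vector for the 9 tested members, untreated and at both treatment times (points, with the standard error as bars, on the log2(intensity + 16) scale). Neo1 lies at -2.27, -1.44 and -1.44, Nrp1 at -2.02, -0.68 and -0.45, and the other members between -0.55 and 0.18.

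Of the plexin genes in the set, none passed the test between the vectors when all arrays were fitted without pairing, though Plxnd1 and Plxna1 did at both treatment times in the paired fit. Plxnd1, the receptor of Sema3e and a partner of Sema4a, stood at 347 and 347 with TEL-AML1 and 431 and 409 with the empty vector in untreated cells. At day 5 it stood at 432.5 and 365 against 531 and 468, and at day 7 at 354 and 372 against 493 and 427. The TEL-AML1 arrays were below the empty-vector arrays in all 3 conditions, but the differences of -0.26 ± 0.10, -0.32 ± 0.10 and -0.32 ± 0.10 did not pass (adjusted p = 0.183, 0.104 and 0.0728). In the paired fit the adjusted p was 0.0363 at day 5 and 0.0282 at day 7, without replicate 2 of the empty vector at day 7 it was 0.039 at day 7, and in untreated cells array weights gave 0.0145 and a fit of the untreated arrays alone gave 0.0179.

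Plxna1, the plexin that joins Nrp1 in the receptor of Sema3a, moved with treatment in the empty-vector cells. Its intensity in untreated cells was 88.4 and 82 with TEL-AML1 and 76.7 and 76.2 with the empty vector. At day 5 it was 152 and 99.7 with TEL-AML1 and 194 and 152 with the empty vector, and at day 7 87.6 and 92.9 with TEL-AML1 and 106 and 124 with the empty vector. All treated empty-vector arrays were above the untreated ones. The rise at day 5 was 1.02 ± 0.16 (adjusted p = 0.00464), and day 7 differed by 0.50 ± 0.16 (adjusted p = 0.0612), which passed without either TEL-AML1 day 5 array (0.0208 for each) and with a filter at the 60th percentile (0.0459). In TEL-AML1 cells the differences were 0.46 ± 0.16 (adjusted p = 0.223, and 0.0311 without replicate 2 of TEL-AML1 at day 5) and 0.07 ± 0.16 (adjusted p = 0.869). In all 4 treated groups Plxna1 was higher on the array with the larger stromal marker sum. With that sum as a covariate the day 5 difference of the empty vector was 0.45 (adjusted p = 0.163), and without replicate 2 of the untreated empty-vector cells the adjusted p was 0.051. Between the vectors Plxna1 differed by 0.13 ± 0.16 without treatment, -0.43 ± 0.16 on day 5 and -0.30 ± 0.16 on day 7 (adjusted p = 0.797, 0.161 and 0.299). The paired fit gave adjusted p = 0.0105 at day 5 and 0.0345 at day 7, and the fit without replicate 1 of TEL-AML1 at day 5 gave 0.0228 at day 5.

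Plxnc1, the plexin that binds Sema7a, stayed between 70.4 and 95.4 on all 12 arrays, and its 6 group means spanned 0.21 on the log2 scale. Its differences between the vectors were -0.08, 0.01 and 0.03 ± 0.099 with adjusted p-values from 0.801 to 0.964. The largest difference of treated from untreated cells was -0.21 ± 0.099 in empty-vector cells at day 5 (adjusted p = 0.196).

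**Figure D3:**
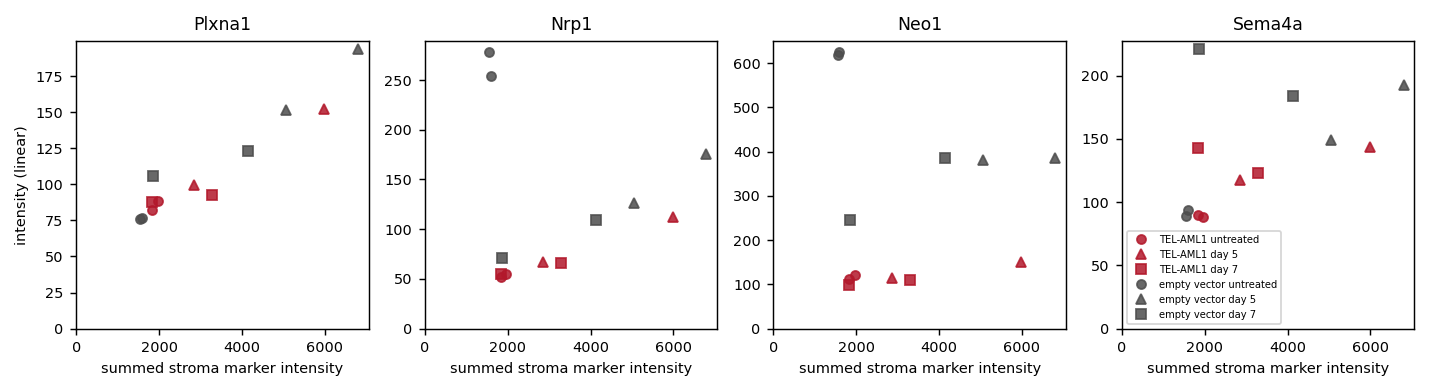
Linear intensity of Plxna1, Nrp1, Neo1 and Sema4a on each array against the summed intensity of 12 stromal markers (red TEL-AML1, grey empty vector, circles untreated, triangles day 5, squares day 7). Plxna1 is highest, at 194, on the array with the largest sum, 6798, while Sema4a is highest, at 221, on an array with a sum of 1856.

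Of the semaphorins, Sema4a showed the clearest change with treatment. Sema4a is a membrane semaphorin of dendritic and T cells. In untreated cells it stood at 87.8 and 90 with TEL-AML1 and 94.1 and 89.2 with the empty vector, and these arrays overlapped. At day 5 it stood at 144 and 117 with TEL-AML1 and 193 and 149 with the empty vector. At day 7 it stood at 142.5 and 123 with TEL-AML1 and 221 and 184 with the empty vector. Every treated array was above every untreated array. Sema4a rose in empty-vector cells by 0.79 ± 0.13 at day 5 (adjusted p = 0.00656) and by 1.02 ± 0.13 at day 7 (adjusted p = 0.00193), and in TEL-AML1 cells at day 7 by 0.50 ± 0.13 (adjusted p = 0.0469). At day 5 TEL-AML1 cells differed by 0.48 ± 0.13 (adjusted p = 0.142, and 0.0325 with array weights).

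The rise of Sema4a in empty-vector cells at day 7 held in all 24 alternatives (adjusted p between 0.000556 and 0.0272). The day 5 call ended without replicate 2 of the untreated empty-vector cells (adjusted p = 0.0713) and with the stromal covariate (0.0759), though the difference was then 0.80. The day 7 call in TEL-AML1 cells ended in 10 of 24 alternatives, among them the fits without any 1 of the 4 TEL-AML1 untreated and day 7 arrays (0.0827 to 0.249) and without either untreated empty-vector array (0.0777 for each). In empty-vector cells the stromal sums of treated and untreated arrays did not overlap, so the covariate fits at day 5 and day 7 are extrapolated. Sema4a was higher on the array with more stromal signal in 2 of 4 treated groups, the day 5 ones, and lower on it at day 7. The summed intensity of 4 markers of plasmacytoid dendritic cells was higher in the same comparisons. With TEL-AML1 it was 1145 to 1265 on treated arrays against 642 and 665 on untreated ones. With the empty vector it was 1264 to 1427 against 785 and 790. Of the 3 tested, Bst2 and Tcf4 were called higher at both times in empty-vector cells, while Irf8 was not called and Siglech, a defining marker, stayed between 50.7 and 64.8. For 6 macrophage and dendritic markers the sum was lower on treated than on untreated arrays. It was 426.5 to 454.8 against 508 and 514 with TEL-AML1, and 404 to 429 against 438 and 468 with the empty vector. The part of these cell types in the change of Sema4a was not tested.

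Between the vectors, Sema4a was lower with TEL-AML1 at day 7 (-0.55 ± 0.13, adjusted p = 0.0248), with both arrays below both empty-vector arrays. The call ended without replicate 1 of the empty vector at day 7 (adjusted p = 0.132), without either TEL-AML1 day 7 array (0.053 and 0.168), and in a fit of the day 7 arrays alone (0.0946). At day 5 the difference was -0.35 ± 0.13 (adjusted p = 0.169, and 0.0128 in the paired fit), and in untreated cells -0.04 ± 0.13 (adjusted p = 0.966). The difference between the vectors' responses was -0.31 ± 0.19 at day 5 and -0.51 ± 0.19 at day 7 (adjusted p = 0.71 and 0.478), so unequal responses of the vectors were not shown.

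Sema7a, which is anchored to the membrane by a lipid and binds Plxnc1 and beta1 integrins, was called higher at day 7 than untreated in empty-vector cells, a call close to the threshold. It stood at 89.1 and 88.3 with TEL-AML1 and 104 and 84.4 with the empty vector in untreated cells. At day 5 it stood at 94.4 and 115 with TEL-AML1 and 125 and 133 with the empty vector, and at day 7 at 149 and 112 with TEL-AML1 and 179 and 121 with the empty vector. The rise in empty-vector cells at day 7 was 0.58 ± 0.17 (adjusted p = 0.047), a call that ended in 13 of 24 alternatives, with adjusted p up to 0.272 without replicate 1 of the empty vector at day 7 and 0.27 without replicate 2 of its untreated cells. TEL-AML1 cells differed by 0.47 ± 0.17 at day 7 (adjusted p = 0.129, and 0.0316 with array weights, 0.0488 when only these groups were fitted). Unlike Plxna1, Sema7a was lower on the array with more stromal signal in each of the 4 treated groups. With the stromal covariate the adjusted p was 0.00545 for TEL-AML1 at day 7, and 0.0141 for the empty vector at day 5, where the difference was 1.07, against 0.40 ± 0.17 without the covariate (adjusted p = 0.146). Stromal sums of empty-vector arrays at day 5 and untreated did not overlap, so the value of 1.07 is extrapolated. The vectors differed by -0.07, -0.27 and -0.17 ± 0.17 in the order untreated, day 5 and day 7 (adjusted p = 0.937, 0.419 and 0.604), and the covariate gave 0.0239 at day 5.

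Sema4d, also called CD100, whose receptors are Plxnb1 and, on B cells, Cd72, lay between 388 and 498 on all arrays. Its differences between the vectors were -0.10, -0.05 and -0.04 ± 0.095, with 95% intervals between -0.32 and 0.17, and those of treated from untreated cells lay between -0.17 and 0.01, none past the test. Cd72 itself stood at 462 and 448 with TEL-AML1, against 675 and 724 with the empty vector in untreated cells (-0.60 ± 0.15, adjusted p = 0.0304). Its differences of -0.21 at day 5, where the arrays overlapped, and -0.27 at day 7 did not pass (adjusted p = 0.477 and 0.314). Of 12 tested genes listed as other semaphorin receptors, 1 (Cd72) was called between the untreated vectors, beside 8.88% of all tested genes. At day 7, 2 of the 12 were called, both higher with TEL-AML1, beside 11.3% of all tested genes.

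Kdr, the main VEGF receptor of endothelium and of early blood-forming precursors, was dim on every array. It stood at 47.6 and 44.1 with TEL-AML1 and 47 and 48.2 with the empty vector in untreated cells, and between 43.1 and 48.6 in treated cells. Its mean was brighter than 20% of all probe sets, and it was not tested. Flt4, the VEGF-C receptor, was likewise under the filter, between 52.2 and 62.2 on all arrays.

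**Figure D4:**
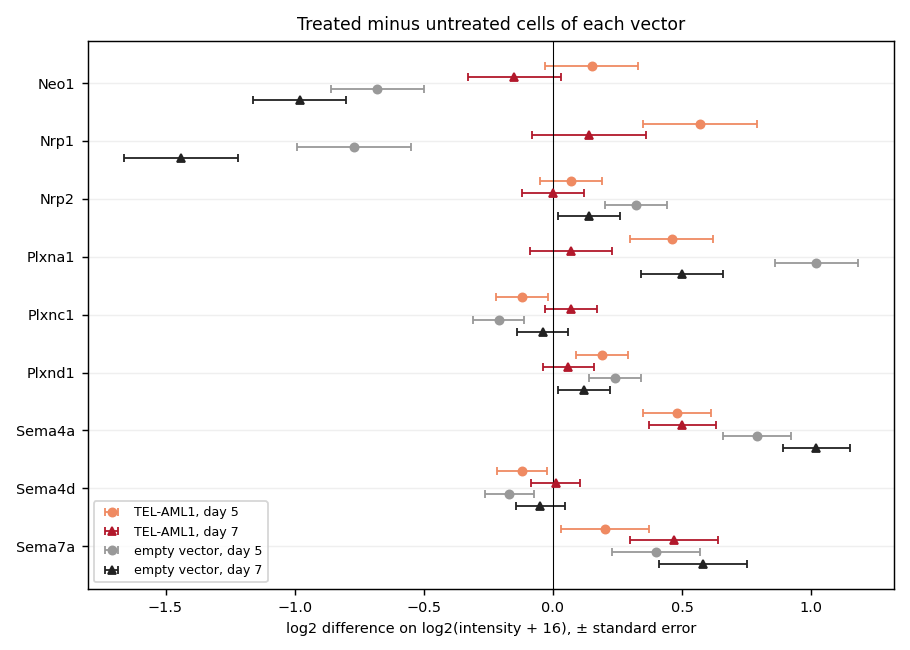
Log2 difference of treated from untreated cells for the 9 tested members at day 5 and day 7, in TEL-AML1 cells and in empty-vector cells (points, with the standard error as bars, on the log2(intensity + 16) scale). In empty-vector cells Sema4a lies at 0.79 and 1.02, Plxna1 at 1.02 and 0.50, and Neo1 at -0.68 and -0.98.

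By count, 2 of the 9 tested members were called between the vectors in untreated cells (Neo1 and Nrp1, both lower), 1 at day 5 (Neo1, lower) and 2 at day 7 (Neo1 and Sema4a, both lower), while 8.88%, 7.29% and 11.3% of all tested genes were called, and 6.15%, 4.27% and 6% were called lower. The untreated count is that of the 2 genes known when the set was drawn up, and nothing is read from it. The members called were 11.1% of 9 at day 5 and 22.2% at day 7, which is 1 gene and 2 genes. In the paired fit 5 members were called at day 5 and 5 at day 7, Neo1, Nrp1, Plxna1, Plxnd1 and Sema4a each time, all lower. That fit called 14.8% and 17.9% of all genes (8.65% and 9.41% lower). It was added after seeing the data, and Neo1 and Nrp1 were selected in the same vector populations. Nothing about the set is read from the counts of that fit. The median difference of the 9 was -0.08 without treatment, -0.32 on day 5 and -0.30 on day 7, against medians of all genes of -0.0078, -0.0014 and -0.0259. The members' medians include Neo1 and Nrp1, selected for being lower with TEL-AML1, so no shift of the set is read from them.

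With treatment, 4 of 9 were called in empty-vector cells at day 5 (Plxna1 and Sema4a higher, Neo1 and Nrp1 lower) and 4 at day 7 (Sema4a and Sema7a higher, Neo1 and Nrp1 lower), where 15.6% and 15.4% of all genes were called. By direction, 8.4% of genes were called higher and 7.15% lower at day 5, and 6.27% higher and 9.18% lower at day 7. Neo1 and Nrp1 count there through untreated arrays that were known, and nothing is read from their calls. Without replicate 2 of the untreated empty-vector cells, 0 were called at day 5, and without replicate 1 there were 2. At day 7 there were 2 without either of these arrays and 2 when only the compared groups were fitted. In TEL-AML1 cells 0 of 9 were called at day 5 by limma and 1 at day 7 (Sema4a), beside 1.6% and 7.81% of all genes (4.74% higher at day 7). Apart from Neo1 and Nrp1, limma's unadjusted p at day 5 was under 0.05 for Plxna1 and Sema4a. No member passed limma's test for a difference between the vectors' responses at day 5 or day 7, where 0.0324% and 0.081% of genes did, and apart from Neo1 and Nrp1 an unadjusted p under 0.05 was found for Plxna1 at day 5 and Sema4a at day 7. The arrays of the compared groups did not overlap for 7 of 9 members between the untreated vectors and for 5 of 9 on each treatment day, beside 57.8%, 46.6% and 50% of all genes. In empty-vector cells they did not overlap for 9 members at day 5 and 6 at day 7, beside 57.4% and 62.1% of genes, and in TEL-AML1 cells for 6 and 4, beside 51.6% and 56.7%. Each of these counts includes Neo1, Nrp1 or both, which were selected on untreated arrays, so nothing about the set is read from them. The comparisons of 1 vector with its untreated cells share those untreated arrays.

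The other genes of these families were taken from lists drawn up by family. Of 15 tested semaphorins among 20, 2 were higher with TEL-AML1 in untreated cells (Sema4b and Sema4c), 1 at day 5 (Sema4c), and 2 higher (Sema4b and Sema4c) and 1 lower (Sema4a) at day 7, with medians of 0.05, -0.06 and -0.07. Of all tested genes, 8.88%, 7.29% and 11.3% were called in either direction. Sema4c, a membrane semaphorin that binds Plxnb2, stood apart in this group. It stood at 479 and 429 with TEL-AML1 against 222 and 202 with the empty vector in untreated cells, at 425 and 418 against 223 and 271 at day 5, and at 463 and 467 against 234 and 229 at day 7. All 6 TEL-AML1 arrays were above all 6 empty-vector arrays. The differences were 1.04 ± 0.097, 0.74 ± 0.097 and 0.96 ± 0.097 (adjusted p = 0.000135, 0.00141 and 0.000222). Sema4b was higher in untreated cells (0.46 ± 0.11, adjusted p = 0.0301) and at day 7 (0.43 ± 0.11, adjusted p = 0.0353).

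Among 11 plexin and neuropilin genes, all tested, Plxna2 was the further one lower with TEL-AML1. It stood at 66 and 67.1 with TEL-AML1 against 137 and 140 with the empty vector in untreated cells, at 73.3 and 74.3 against 141 and 140 at day 5, and at 67.3 and 58.7 against 138 and 136 at day 7. No arrays of the vectors overlapped, and the differences were -0.90, -0.80 and -0.96 ± 0.072 (adjusted p = 6.32e-05, 0.000183 and 4.83e-05). Plxnb2 was higher in empty-vector cells at day 5 than untreated (1.40 ± 0.33, adjusted p = 0.0208), at 263 and 137 against 63.8 and 60.3, with the higher value on the array with more stromal signal. Semaphorins higher in empty-vector cells at day 5 were 6 of 15, beside 8.4% of all tested genes. Among them were the secreted Sema3a (0.67 ± 0.20) and Sema3c (0.65 ± 0.17) and the transmembrane Sema5a (0.84 ± 0.20). Sema3a and Sema5a averaged under the filter intensity in untreated empty-vector cells, so they entered the test through the groups where they were brighter. The part of stromal RNA in these was not tested.

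Of 15 tested genes of the neogenin, DCC, UNC5, netrin and RGM list, among 23 listed names, Neo1 alone was called between the vectors at day 5 and day 7, and Unc5b (0.48 ± 0.11) and Acvr1 (0.39 ± 0.077) were higher at day 5 than untreated in empty-vector cells. Beside them, 7.29% and 11.3% of all tested genes were called between the vectors, and 8.4% were higher in the latter comparison. Among 6 tested VEGF genes, Flt1, which codes for the VEGF receptor that neuropilins also join, stood at 466 and 461 with TEL-AML1 against 1531 and 1472 with the empty vector in untreated cells, at 214 and 310 against 845 and 953 at day 5, and at 205 and 165 against 782 and 1055 at day 7. It lies in the same distal stretch of chromosome 5 as Vps33a, bounded from these data, where 198 of 333 tested genes were lower in untreated TEL-AML1 cells. None of the 10 members lies in that stretch. Vegfa was higher in empty-vector cells at day 5 than untreated (0.77 ± 0.15, adjusted p = 0.012).

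Of 34 tested mediators of semaphorin and plexin signals, 2 were lower with TEL-AML1 in each condition, beside 6.15%, 4.27% and 6% of all tested genes. Nothing about the mediators as a group is read from that count. Median differences of the 34 lay between -0.02 and 0.02. Limk1, a kinase that acts on cofilin, was lower in each, with differences of -1.04 ± 0.084 in untreated cells (adjusted p = 6.32e-05), -0.78 ± 0.084 at day 5 and -0.93 ± 0.084 at day 7, and lies in the same stretch of chromosome 5. Rac1, a GTPase of the actin skeleton, also in that stretch, was lower too, with differences of -0.41 ± 0.084, -0.40 ± 0.084 and -0.56 ± 0.084 (adjusted p = 0.011, 0.0155 and 0.00206). Rras2, a small GTPase related to the R-Ras that plexins act on, was lower in treated than untreated cells, with differences of -0.66 ± 0.12 and -0.76 ± 0.12 in empty-vector cells at day 5 and day 7 and of -0.52 ± 0.12 in TEL-AML1 cells at day 7. Of 12 tested Eph and ephrin genes, Epha2 was lower with TEL-AML1 in each condition (-0.89, -0.92 and -0.89 ± 0.14).

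**Figure D5:**
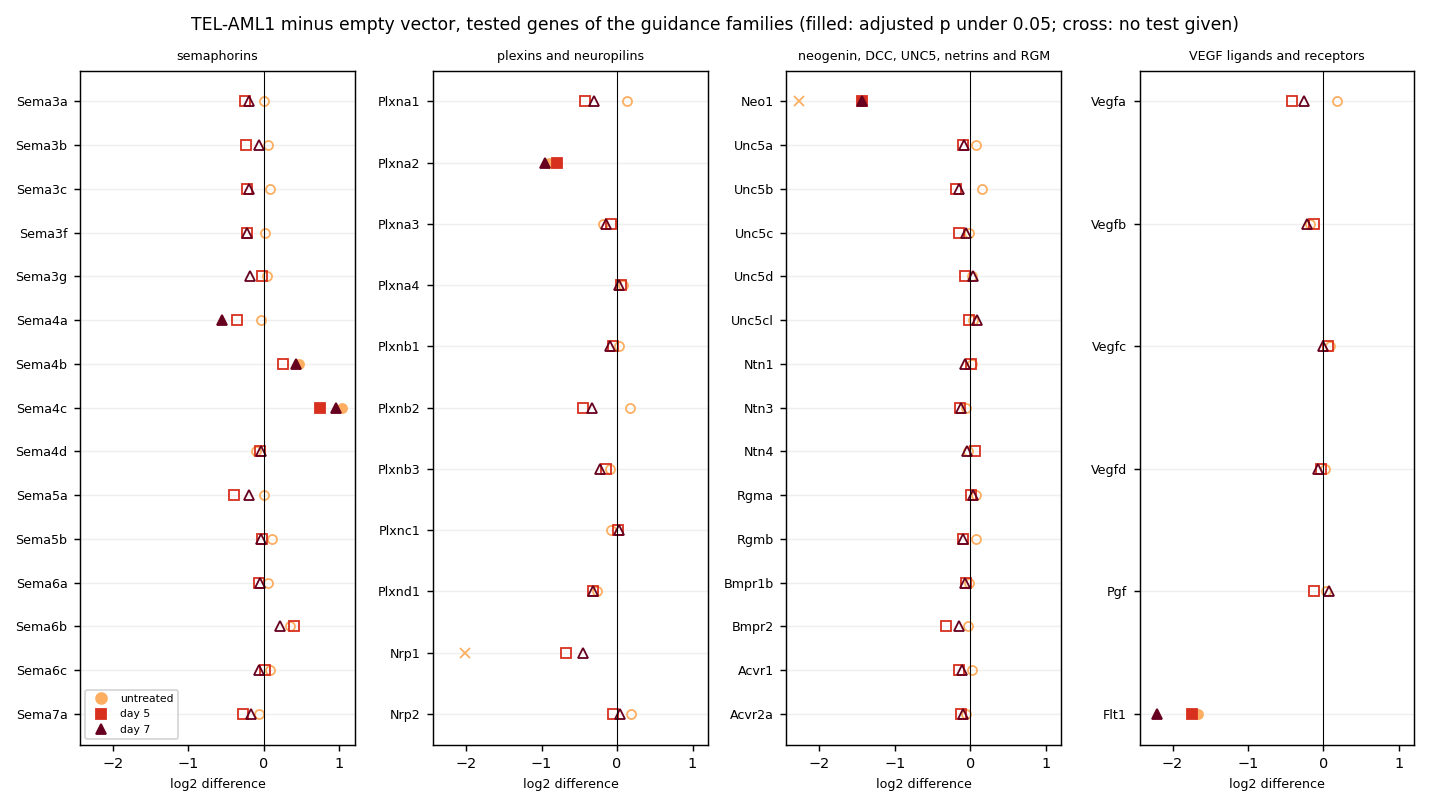
Log2 difference of TEL-AML1 from empty vector for the tested genes of 4 guidance families, with circles for untreated cells, squares for day 5 and triangles for day 7, filled where the adjusted p was under 0.05. Crosses mark Neo1 and Nrp1 in untreated cells, for which no test is given, and Sema4c, Plxna2 and Flt1 are filled in all 3 conditions.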

How the data were processed

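RNA of 12 EML1 samples was measured on Affymetrix arrays. Extraction used TRIzol and then RNeasy columns, per the labels' protocols. The authors deposited 1 linear intensity per probe set and array for 35556 probe sets, and their background correction, probe summary and normalization are not given in the sources used here. An array has no read depth, and the number of arrays limits the precision. Of the probe sets, 21218 listed 1 gene, 1881 several and 12457 were not listed, and only the first kind was named.

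Groups and replicate numbers came from the sample titles. Values were taken as log2(intensity + 16), which understates changes of dim genes, and filtered at the 40th percentile of mean log2 values. All arrays entered 1 limma model (limma 3.58.1, R 4.3.3) with a mean for each of 6 groups (6 residual and 4.23 prior degrees of freedom), with 9 contrasts. The fit was tested on simulated data. The members and gene lists were chosen with earlier results of these data known. The text names all 10 members and the 3 most correlated genes of members whose group means span over 1 on the log2 scale. From the lists it names some of the up to 4 called genes with the largest change, and others in places where a count of 5 or fewer asks for the name. Genes with such changes that are not described include Ncam1 (largest change 1.1), Farp1 (0.9), Mical2 (0.7) and the Slit and Robo genes.

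Same-numbered arrays of the 2 vectors deviated together within a condition (correlations across genes of 0.432 untreated, 0.543 at day 5 and 0.378 at day 7), while numbers did not pair arrays across conditions. The pairing of arrays within each condition (the paired fit) and the stromal covariate were added after seeing the data. Stromal sums of untreated and day 5 arrays did not overlap within either vector, nor did those of untreated and day 7 arrays of the empty vector. Within TEL-AML1 the untreated and day 7 sums overlapped. With that covariate, day 5 differences from untreated and the day 7 difference of the empty vector are therefore extrapolated. So are the differences between the vectors' responses. None of these values separates stroma from treatment. The other alternatives were quantile normalization, centring, other filters, pseudocounts, the mean of probe sets, a trended variance, array weights, only the compared groups, a replicate block over all conditions, and leaving out each array.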

Additional observations from a re-analysis of the deposited data

Results flagged for a closer look

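Nrp1 was singled out because both arrays of each vector moved in opposite ways at day 5. Day 5 arrays of TEL-AML1 (112 and 67.4) were above the untreated ones (55.1 and 51.6), while day 5 arrays of the empty vector (176 and 127) were below the untreated ones (254 and 278). The difference between the responses, TEL-AML1 minus empty vector, was 1.34 ± 0.31 on the log2 scale. It did not pass in the fit of all 12 arrays (limma, adjusted p = 0.452) and passed in the paired fit (0.0345) and with the stromal covariate (0.00293). These p-values are given for the record only and nothing is read from them, since the difference rests on untreated arrays in which Nrp1 was known to differ.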

How the results depend on the processing

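Of the 9 tested members, 2 were called between the vectors in untreated cells, and 2 or 3 under the alternatives. At day 5 the count was 1, against 5 with the replicate block within each condition (which called 14.8% of all genes), 3 with the stromal covariate (10.6%) and 1 to 3 when 1 array was left out. At day 7 it was 2, against 5 with that block (17.9%), 1 when only the compared groups were fitted (2.97%) and 1 to 3 with 1 array left out. In empty-vector cells the count of 4 at day 5 became 0 to 4 with 1 array left out, and that of 4 at day 7 became 2 when only the compared groups were fitted (2.39%) and 2 to 5 with 1 array left out. In TEL-AML1 cells the count of 0 at day 5 became 1 with array weights (3.79%) and 0 to 1 with 1 array left out. The count of 1 at day 7 became 0 with quantile normalization, centring on the median, no filter or a pseudocount of 64, 2 with array weights, only the compared groups or the stromal covariate, and 0 to 1 with 1 array left out. For differences between the responses the count of 0 became 1 with the block within each condition and 2 with the stromal covariate at both times, and 0 to 2 with 1 array left out at day 7. The genes gained there were Nrp1 with the block and Neo1 and Nrp1 otherwise, both selected on the untreated arrays of this contrast. Nothing is read from them, nor from their share of the other counts, as treated arrays come from the same vector populations. Over the alternatives that kept all arrays, the counts in empty-vector cells were 3 to 5 at day 5 and 2 to 5 at day 7. The replicate block over all conditions moved no count by more than 1.5 times. Over all genes and alternatives, calls between the vectors ranged from 476 to 2600 around 1096 in untreated cells, from 325 to 1827 around 900 at day 5 and from 367 to 2207 around 1389 at day 7. Calls for treatment ranged from 202 to 2445 around 1920 and from 295 to 2831 around 1907 in empty-vector cells, and from 79 to 468 around 197 and from 199 to 2233 around 964 in TEL-AML1 cells. Calls for differences between responses ranged from 1 to 19 around 4 and from 0 to 74 around 10. With 2 arrays a group, calls near the threshold rest on single arrays, and dim probe sets such as those of Nrp2, Kdr and, with TEL-AML1, Nrp1 lie close to background. No value reversed its direction where it was called, and the cause of the changed counts was not tested.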
